A study of Rattus norvegicus with 4 samples.

Results

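The genes described are those of the enzyme families that oxidise and conjugate drugs, steroids, lipids and other small molecules, measured in PC12 cells with and without a MAX expression plasmid. They were the genes whose RefSeq symbol starts with Cyp and a digit (Cyp51 apart), Gsta, Gstm, Gstp, Gstt, Mgst, Ugt1, Ugt2 or Sult. A gene also needed a probe that at least 2 of the 4 arrays showed well above background, as the scanner software called it. Of 89 such genes with a probe that could be named, 46 met this rule, through 51 probes, among 25356 genes and 28564 probes measured in all. All 13 glutathione transferase genes with a named probe were measured, against 26 of 55 cytochrome P450 genes, 5 of 11 sulfotransferase genes and 2 of 10 UDP-glucuronosyltransferase genes.

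PC12 is a line of rat pheochromocytoma, a tumour of adrenal chromaffin cells, and is known to lack a functional MAX protein. One group was a PC12 line transfected with an empty vector and the other a PC12 line transfected with a plasmid that codes for MAX, and both were selected with E418, as the labels spell it. The lines were harvested at passages 8 and 13, so that each group has 2 one-colour arrays. Which replicate number belongs to which passage is not stated. The p-values below therefore reflect how much arrays of a line varied between passages and, for MAX, between slides, not how much separate transfections vary. MAX is the partner through which MYC family proteins bind DNA at the E-box CACGTG.

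Cytochrome P450s insert oxygen into their substrates and depend on electron donors and haem. Glutathione transferases, UDP-glucuronosyltransferases and sulfotransferases attach glutathione, glucuronate or sulfate, which makes a compound more soluble and ready for export by efflux pumps. Liver is the main site of many of these enzymes, while the adrenal gland uses a few P450s to make steroids, and sulfotransferases can conjugate catecholamines. Xenobiotic receptors and the antioxidant factor NRF2 are known regulators of many members.

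Each array showed 64.4% to 71.5% of the 41012 probes well above background and 0 saturated spots. Log2 signals of the replicate arrays correlated across probes with a Pearson r of 0.9905 for the empty vector and 0.9887 for MAX, and arrays of different groups with 0.9839 to 0.9882. Both empty vector arrays and MAX vector replicate 2 lay on 1 slide, and MAX vector replicate 1 lay on another. The Max probe was well above background on 0 arrays and does not check the labels. Among 9 measured chromaffin markers Th was higher, Ddc was lower and the other 7 were not called. Dbh and Slc18a1 were detected on 1 of 2 MAX vector arrays. With 4 arrays, their number limits the precision.

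The 250 bases before the RefSeq start of 7 members are shown on build GRCr8, 5′ to 3′ on the strand of the gene. The first 4 are the members that passed the test, Gsta1 and Gsta3 are the other alpha class genes measured beside Gsta2, and Sult2b1 held the E-box. Capitals mark matches, on either strand, to the E-box CACGTG, the antioxidant element core TGACNNNGC or the xenobiotic element core TNGCGTG, and overlapping matches would be marked together.
Gsta2: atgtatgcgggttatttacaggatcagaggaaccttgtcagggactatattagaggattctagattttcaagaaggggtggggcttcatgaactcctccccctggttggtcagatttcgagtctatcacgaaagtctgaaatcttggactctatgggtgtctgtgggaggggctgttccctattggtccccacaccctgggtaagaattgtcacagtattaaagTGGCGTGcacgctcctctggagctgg
Cyp2c7: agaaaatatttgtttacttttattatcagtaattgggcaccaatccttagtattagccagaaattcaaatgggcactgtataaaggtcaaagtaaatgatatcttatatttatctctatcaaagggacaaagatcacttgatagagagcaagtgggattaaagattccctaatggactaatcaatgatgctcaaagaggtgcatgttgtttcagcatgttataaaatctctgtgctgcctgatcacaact
Cyp3a9: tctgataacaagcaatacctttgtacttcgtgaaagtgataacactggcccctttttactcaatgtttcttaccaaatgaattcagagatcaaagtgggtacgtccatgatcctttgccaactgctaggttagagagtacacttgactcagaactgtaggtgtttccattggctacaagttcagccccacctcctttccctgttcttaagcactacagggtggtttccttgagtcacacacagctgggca
Cyp2j3: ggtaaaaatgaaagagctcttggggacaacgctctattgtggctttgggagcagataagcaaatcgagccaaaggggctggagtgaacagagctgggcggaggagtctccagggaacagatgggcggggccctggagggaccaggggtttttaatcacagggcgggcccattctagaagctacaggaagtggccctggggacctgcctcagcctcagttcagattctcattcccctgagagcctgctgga
Gsta1: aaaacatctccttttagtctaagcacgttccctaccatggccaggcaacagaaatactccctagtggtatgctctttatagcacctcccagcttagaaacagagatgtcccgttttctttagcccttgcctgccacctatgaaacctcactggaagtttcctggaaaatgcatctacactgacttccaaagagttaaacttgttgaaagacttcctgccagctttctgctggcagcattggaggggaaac
Gsta3: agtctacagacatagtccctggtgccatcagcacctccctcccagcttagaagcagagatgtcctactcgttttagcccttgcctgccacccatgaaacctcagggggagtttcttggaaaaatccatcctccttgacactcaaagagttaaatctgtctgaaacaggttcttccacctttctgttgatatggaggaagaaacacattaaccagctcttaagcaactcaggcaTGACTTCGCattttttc
Sult2b1: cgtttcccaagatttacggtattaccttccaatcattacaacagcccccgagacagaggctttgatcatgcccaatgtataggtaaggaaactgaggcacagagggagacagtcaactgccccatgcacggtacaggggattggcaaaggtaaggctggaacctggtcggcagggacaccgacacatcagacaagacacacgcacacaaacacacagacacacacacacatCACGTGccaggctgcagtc
These windows lie at chr8:88077093-88077342 (minus strand) for Gsta2, chr1:247966144-247966393 (plus strand) for Cyp2c7, chr12:21960161-21960410 (minus strand) for Cyp3a9 and chr5:116360500-116360749 (minus strand) for Cyp2j3. Those of Gsta1, Gsta3 and Sult2b1 lie at chr9:31216533-31216782 (minus strand), chr9:31154739-31154988 (plus strand) and chr1:105397745-105397994 (minus strand). RefSeq windows were found for 39 of the 46 members, 40 windows in all, since Gsta3 has 1 further start.

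The E-box was in 1 of the 40 windows, that of Sult2b1, 19 bases before the start, and in 5.59% of all 33469 rat windows. The antioxidant element core was in 6 of the 40 and in 10.1% of all windows. Gsta3 held it 17 bases before the start, Gstp1 61, Cyp4b1 22 and Gstm7 14 bases before, and Gstm5 held it at 113 and at 53 bases before. The xenobiotic element core was in 2 of the 40 and in 4.09% of all windows. Gsta2 held it 26 bases before the start and Cyp26b1 185 bases before, and Cyp26b1 also held an antioxidant element core at 146 bases before. Cyp2c7, Cyp3a9, Cyp2j3 and Gsta1 held none of these letters in the window. Among 779 pairs of windows of different members, the longest shared run of letters was 20 bases, between Gsta1 and Gsta3, and the median longest run was 8 bases.

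In cells with the MAX vector, Gsta2, an alpha class glutathione transferase gene, and Cyp2c7, a retinoic acid hydroxylase gene best known from liver, were higher. Cyp3a9, a steroid and drug oxidising P450 gene, and Cyp2j3, an arachidonic acid epoxygenase gene, read lower. Neither was well above background on any MAX vector array. These 4 of the 46 members passed an adjusted p of 0.05 in limma, against 213 of 25356 genes (0.84%). Of all genes 0.576% passed as higher and 0.264% as lower, against 2 and 2 members. The split of members into higher and lower moved with the setting, to 5 and 1 with normexp, 4 and 1 with quantile normalization and 6 and 2 with the array median as scaling. It was 4 and 0 where all 4 arrays had to be well above background and 6 and 0 with an intensity trend. At an unadjusted p under 0.05, 15 members were higher, against 7.93% of all genes, and 6 were lower, against 8.21%. The median log2 fold change was 0.03 over the measured members, 23 positive and 23 negative, and -0.019 over all genes tested. A member dim in 1 group entered the test only through the group where it was bright, so these counts describe the measured members alone. This holds for both lower calls, which entered through the empty vector arrays. Their bounds were at least 2.2-fold lower for Cyp3a9 and at least 1.02-fold for Cyp2j3.

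Both MAX vector arrays lay above both empty vector arrays for 20 of the 46 members, against 24.2% of all genes. They lay below for 12 of the 46, against 26% of all genes, and the groups overlapped for the other 14. Of the families, the glutathione transferases had 7 members wholly above, 5 wholly below and 1 that overlapped. The P450s had 9 above, 6 below and 11 that overlapped. The sulfotransferases had 4 above and 1 that overlapped, and of the UDP-glucuronosyltransferases 1 lay below and 1 overlapped. RNA came from whole cultures, so fewer cells that express a gene and less RNA per cell cannot be told apart.

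**Figure D1:**
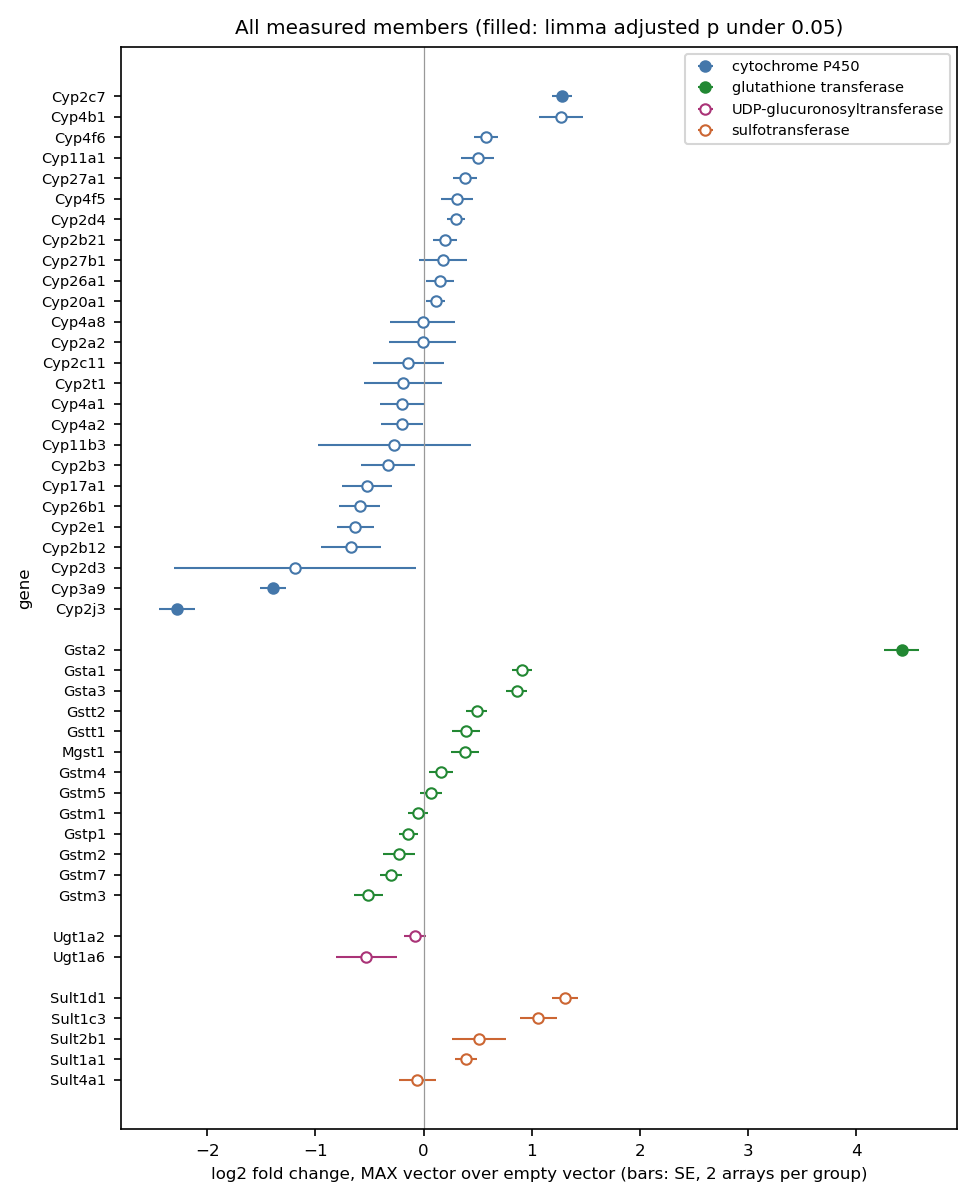
Log2 fold change, MAX vector over empty vector (horizontal axis), of the 46 measured members by family, with bars of 1 SE from limma on 2 arrays per group. Filled points passed an adjusted p of 0.05. Gsta2 stands at 4.42 and Cyp2j3 at -2.28, and Cyp2d3 and Cyp11b3 have the widest bars. The glutathione transferases other than Gsta2 lie between -0.51 and 0.91.

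Glutathione transferases of the alpha class, which conjugate electrophiles and reduce lipid peroxides, were higher on both MAX vector arrays for all 3 measured genes. Of all genes 24.2% were. Signals are given below as log2 of the processed signal relative to each array's 75th percentile over probes, so that 0 stands for that percentile. Gsta2 had -5.78 and -5.40 with the empty vector against -1.14 and -1.21 with MAX. Both MAX vector arrays were far above both empty vector arrays, and replicates lay 0.37 apart with the empty vector against 0.07 apart with MAX. The log2 fold change was 4.42 ± 0.16 (SE, n = 2 arrays per group), or 21.3-fold (adjusted p = 0.0197 in limma). In scanner units the signals were 12.8 and 14.5 with the empty vector against 268 and 289 with MAX, while the lowest signals called well above background on the empty vector arrays were 7.57 and 9.11. A further Gsta2 probe read -6.54 and -6.01 with the empty vector against -0.79 and -0.64 with MAX. Of the 2 empty vector arrays 1 showed it well above background, and its log2 fold change was 5.56 ± 0.21. With the normexp background correction, which adds an offset of 50 to every signal and draws folds of dim probes toward 1, Gsta2 had 2.24 (adjusted p = 3.73e-07 in limma).

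Gsta1, another alpha class gene, had 2.36 and 2.41 with the empty vector against 3.29 and 3.31 with MAX. The groups lay well apart and the replicates close together. Its log2 fold change was 0.91 ± 0.09 (1.88-fold, adjusted p = 0.0521 in limma), just outside the threshold, and it passed under 6 of 16 alternative settings. Gsta3 had -0.48 and -0.59 with the empty vector against 0.36 and 0.29 with MAX. The groups again did not overlap. Its log2 fold change was 0.86 ± 0.10 (1.81-fold, adjusted p = 0.0672), and it passed under 3 of 16 alternatives. In the RefSeq gene order of GRCr8, Gsta3, Gsta1 and Gsta6 follow each other, while Gsta2 stands in another run with Gsta4 and Gsta5. Alpha class genes are close paralogs, so which of them gave the signal is uncertain, for Gsta2 with its 2 probes as well.

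The mu class, which conjugates epoxides and other electrophiles, had 6 measured genes, all of 1 run of 9 neighbours, and none of the 6 passed the limma test. Of these, 1 was wholly higher and 4 wholly lower with MAX, against 24.2% and 26% of all genes. Log2 fold changes of the 6 ran from -0.51 to 0.16 with a median of -0.14. Gstm1 had 2.77 and 2.75 with the empty vector against 2.73 and 2.68 with MAX, a difference of -0.05 ± 0.09. Gstm3 had -4.84 and -5.13 against -5.48 and -5.50, a difference of -0.51 ± 0.13 (adjusted p = 0.219). The first of these genes was nearly level across the 4 arrays, and the second was lower on both MAX vector arrays without passing. At an unadjusted p under 0.05, Gstm3 and Gstm7 (-0.30 ± 0.10) were the 2 glutathione transferases on the lower side, and 6 were on the higher side. Of all genes 8.21% were lower and 7.93% higher at that threshold.

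Gstp1, the single pi class gene measured, had strong signals of 5.73 and 5.78 with the empty vector against 5.67 and 5.56 with MAX. The difference was -0.14 ± 0.09 (adjusted p = 0.528 in limma), and its groups did not overlap. Mgst1, which encodes a membrane-bound microsomal transferase, had 3.90 and 3.95 against 4.44 and 4.17, a difference of 0.38 ± 0.13 (adjusted p = 0.289). The theta class genes Gstt2 and Gstt1 had 0.49 ± 0.10 and 0.39 ± 0.13 (adjusted p = 0.161 and 0.29). Both lay wholly higher with MAX, as did 24.2% of all genes. A further Gstt2 probe gave 0.41 ± 0.10.

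**Figure D2:**
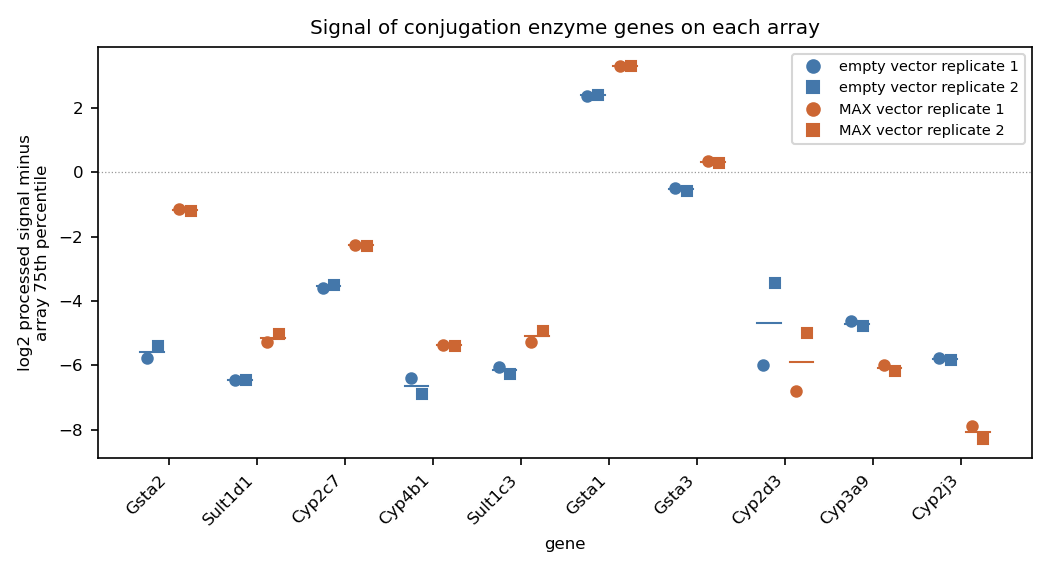
Log2 processed signal minus the array's 75th percentile (vertical axis) on each of the 4 arrays, for members that passed, those with a log2 fold change of at least 1 in size, and Gsta1 and Gsta3. Circles are replicate 1, squares replicate 2, and short lines the group means. For Gsta2 the empty vector arrays sit at -5.78 and -5.40 and the MAX vector arrays at -1.14 and -1.21, while for Cyp2d3 the groups overlap. Heights of different genes come from different probes and are not comparable.

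Of 26 measured P450 genes, 1 was called higher, 2 were called lower and 23 did not pass the limma test. The shares over all genes were 0.576% higher and 0.264% lower. The median log2 fold change of the 26 was -0.08. The 12 genes of the CYP2 and CYP3 families, which oxidise drugs, steroids and fatty acids, held all 3 calls. Of these 12 genes 3 had a positive and 9 a negative log2 fold change, with a median of -0.26. Over all genes tested, 11783 were positive and 13573 negative. Cyp2c7 had -3.60 and -3.50 with the empty vector against -2.25 and -2.30 with MAX. All 4 arrays were well above background, and the groups lay clearly apart. The log2 fold change was 1.28 ± 0.09 (2.42-fold, adjusted p = 0.0366 in limma). A further probe read -4.83 and -4.83 with the empty vector against -3.37 and -3.72 with MAX, a difference of 1.29 ± 0.15. Another 2 probes named Cyp2c7 were well above background on 0 arrays and differed by 0.17 and 0.56. With normexp Cyp2c7 had 0.75 (adjusted p = 0.00468 in limma). The gene lies beside Cyp2c6v1, and as the CYP2C genes are close paralogs, which of them gave the signal is uncertain.

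Cyp3a9 had -4.63 and -4.79 with the empty vector against -5.99 and -6.19 with MAX. It was lower on both MAX vector arrays, where 0 of 2 showed it well above background. The fitted log2 fold change was -1.39 ± 0.12 (adjusted p = 0.0477 in limma). Since neither MAX vector array showed it well above background, the fold is given as a bound, at least 2.2-fold lower. That bound replaces a dim reading by the lowest signal of any probe called well above background on its array, unless the reading itself was higher. It has no SE and is not the detection limit of each probe. Cyp4a8, for example, was not called at 14.4 units on MAX vector replicate 2, where that lowest signal was 10.1. With normexp Cyp3a9 had -0.30 (adjusted p = 0.328 in limma) and with quantile normalization -1.36 (0.116). With an intensity trend in the prior its adjusted p was 0.0752, so the call was lost each time. Other CYP3A genes with a named probe, Cyp3a18, Cyp3a2, Cyp3a23-3a1 and Cyp3a62, were not measured.

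Cyp2j3 had -5.77 and -5.85 with the empty vector against -7.89 and -8.30 with MAX. It was well above background on both empty vector arrays and on neither MAX vector array. The fitted log2 fold change was -2.28 ± 0.17 (adjusted p = 0.0376 in limma), yet the bound allows only that it was at least 1.02-fold lower. With normexp it had -0.30 (adjusted p = 0.342) and with an intensity trend an adjusted p of 0.123 in limma, so the call was lost. Its other probe was well above background on 0 arrays and differed by 0.31. In scanner units the probe that fell read 12.8 and 10.6 with the empty vector, close to the lowest signals called well above background there.

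None of the 4 calls among the members held with each array left out. Testing without a filter on dim probes, or with the replicate number as a block, likewise left limma with 0 calls. In these settings 4033 and 3885 genes had an unadjusted p under 0.05. Dropping either empty vector array left limma with 0 calls over all genes, although 1963 and 2456 genes had an unadjusted p under 0.05. Dropping MAX vector replicate 1 left 8 genes, none of them members, and 18 members had an unadjusted p under 0.05. That setting is also the slide as a block, since replicate 1 was alone on its slide, and it gave log2 fold changes of 4.38 for Gsta2, 1.25 for Cyp2c7, -1.49 for Cyp3a9 and -2.49 for Cyp2j3. Their adjusted p-values there were 0.0643, 0.103, 0.0982 and 0.0643. When MAX vector replicate 2 was dropped, Gsta2 and Cyp2j3 passed at 4.45 and -2.07, and Cyp2c7 and Cyp3a9 had 1.30 and -1.28 (adjusted p = 0.0599 and 0.0669 in limma). Without empty vector replicate 1 the 4 genes had 4.23, 1.23, -1.31 and -2.24, and without empty vector replicate 2 they had 4.60, 1.33, -1.46 and -2.32.

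**Figure D3:**
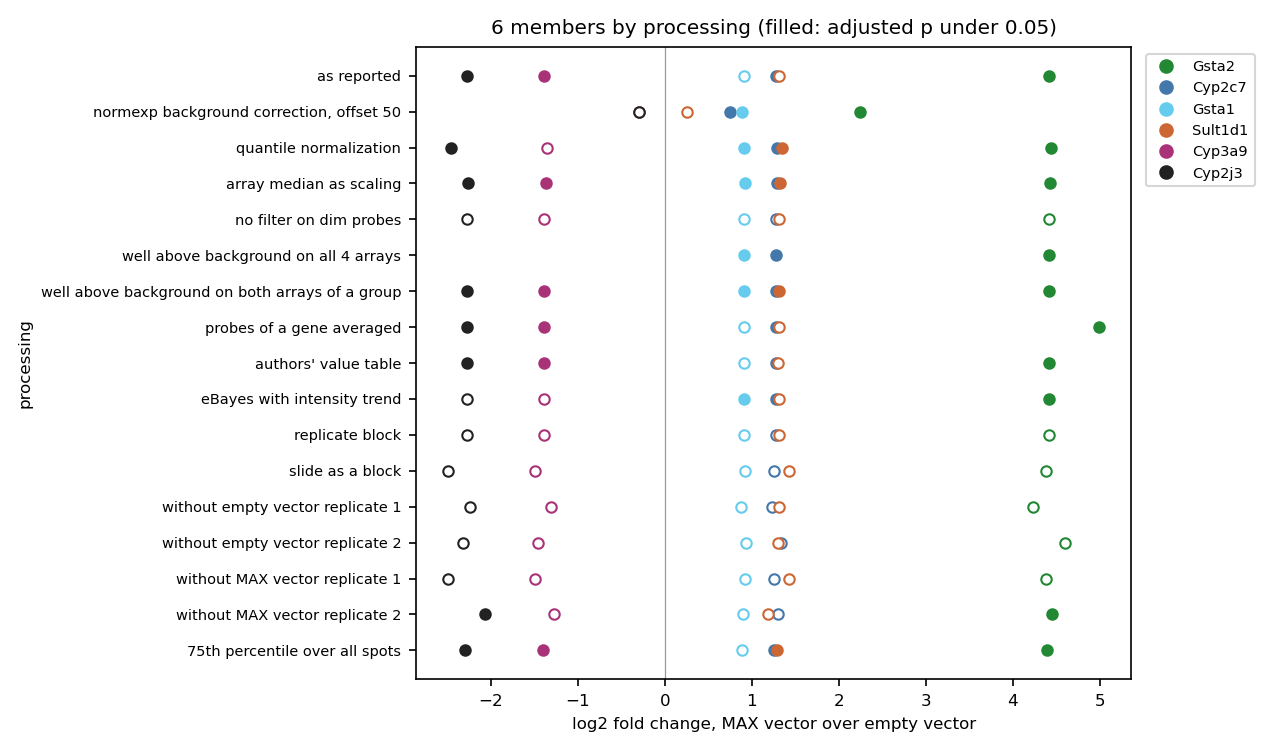
Log2 fold change, MAX vector over empty vector (horizontal axis), of 6 members under the reported setting and each alternative (vertical axis), filled where the adjusted p was under 0.05. Gsta2 stays between 2.24 and 4.99, and Cyp3a9 and Cyp2j3 move to -0.30 with normexp. Points are missing where a gene was not tested under that filter.

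P450 genes with bright probes did not pass. Cyp26b1, whose enzyme breaks down retinoic acid, had 4.43 and 4.14 with the empty vector against 3.89 and 3.50 with MAX, a difference of -0.59 ± 0.19 (adjusted p = 0.274 in limma). Its groups did not overlap, but its replicates differed by 0.29 and 0.38. Cyp26a1, which acts on the same substrate, had 0.15 ± 0.13 and overlapped. Cyp2e1, the ethanol oxidising P450, had 1.25 and 1.65 against 0.86 and 0.77, a difference of -0.63 ± 0.17 (adjusted p = 0.223), and it passed with normexp alone among the alternatives. Cyp20a1, an orphan P450, had 2.73 and 2.72 against 2.86 and 2.81, a difference of 0.11 ± 0.09.

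The 6 measured CYP4 genes, which hydroxylate fatty acids and related lipids, had 0 calls and a median log2 fold change of 0.15. Cyp4f6 had 1.44 and 1.56 with the empty vector against 2.0 and 2.15 with MAX. Its groups lay apart, with a log2 fold change of 0.58 ± 0.11 (adjusted p = 0.139 in limma), and it passed under 2 of 16 alternatives. Cyp4b1, a P450 best known from lung, had -6.39 and -6.91 against -5.36 and -5.39. It was well above background on both MAX vector arrays and on neither empty vector array. Its fitted log2 fold change was 1.27 ± 0.20 (adjusted p = 0.114), with a bound of at least 1.8-fold higher. In scanner units it read 8.36 and 5.07 with the empty vector against 14.3 and 15.9 with MAX, near the limit of detection. It passed under 1 of 15 alternatives, and with normexp it had 0.12 (adjusted p = 0.839 in limma). Cyp4a1 and Cyp4a2 both had -0.20 and overlapped between the groups, as did Cyp4a8.

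The 5 P450 genes of steroid, sterol and vitamin D metabolism also had 0 calls in limma, and their log2 fold changes ran from -0.52 to 0.50. Cyp11a1, which encodes the cholesterol side chain cleavage enzyme, had -3.70 and -3.48 against -3.23 and -2.95, a difference of 0.50 ± 0.15 (adjusted p = 0.258). Cyp27a1, a mitochondrial sterol hydroxylase gene, had 0.38 ± 0.11, and Cyp27b1, whose enzyme activates vitamin D, had 0.18 ± 0.22. Cyp17a1, a steroid hydroxylase gene, had -0.52 ± 0.23, and 1 of the 2 MAX vector arrays showed it well above background. Of the adrenal cortex markers Star, Hsd3b1 and Scarb1 0 passed, with 0.07, 0.72 and 0.12, and Nr5a1 and Mc2r had no named probe.

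Some P450 values rested on replicates that differed widely. Cyp11b3, of the corticosteroid hydroxylase family, had -3.10 and -2.89 with the empty vector against -4.26 and -2.28 with MAX, a difference of -0.27 ± 0.71. The MAX vector arrays lay on either side of the empty vector arrays, and on slide 1 alone the difference was 0.72. Cyp2d3 had -5.98 and -3.43 against -6.80 and -5.00, a difference of -1.19 ± 1.12 (adjusted p = 0.645 in limma), and overlapped. Cyp2d4, of the same run of CYP2D genes, had close replicates by its brighter probe, with 0.30 ± 0.08. Its further probe, well above background on 1 array of each group, read -5.14 and -5.77 with the empty vector and gave 0.27 ± 0.25. MAX vector replicate 1 was over 0.5 log2 units below replicate 2 for 9 of 26 P450 genes and above it by as much for 1. Between the empty vector arrays, replicate 1 was that far below replicate 2 for 3 P450 genes and above it for 1. Among the 13 glutathione transferases and 5 sulfotransferases the count was 0 in either direction in both groups. Replicate 1 of the MAX vector group also had the fewest probes well above background, 26411 against 28493 in replicate 2, and the part of this gap in the P450 values was not tested.

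Sulfotransferases had 5 measured genes, 0 calls in limma and a median log2 fold change of 0.51. Sult1d1, whose enzyme is known to conjugate dopamine and other catecholamines in rodents, had -6.47 and -6.47 with the empty vector against -5.28 and -5.04 with MAX. It was well above background on both MAX vector arrays and on neither empty vector array. Its log2 fold change was 1.31 ± 0.12 (adjusted p = 0.0508 in limma), with a bound of at least 2.15-fold higher, and it passed under 4 of 15 alternatives. With normexp it had 0.25 (adjusted p = 0.468). Sult1c3 had -6.06 and -6.26 against -5.28 and -4.93, with 1 of the 2 empty vector arrays well above background. Its groups did not overlap, and its log2 fold change was 1.06 ± 0.17 (adjusted p = 0.113).

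Sult2b1, which encodes a sterol sulfotransferase and whose window held the E-box, had -5.60 and -5.15 with the empty vector against -5.11 and -4.63 with MAX. The groups almost met, at -5.15 and -5.11, while replicates differed by 0.45 and 0.48. The difference was 0.51 ± 0.25 (adjusted p = 0.42 in limma). Sult1a1, the phenol sulfotransferase gene, had -0.88 and -0.76 against -0.48 and -0.39, a difference of 0.39 ± 0.10 (adjusted p = 0.214). Sult4a1, a brain sulfotransferase gene with no settled substrate, had -2.38 and -1.99 against -2.19 and -2.31, a difference of -0.06 ± 0.17, and overlapped.

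The UDP-glucuronosyltransferases had 2 measured genes, both of the UGT1 cluster, whose transcripts share their last exons. Ugt1a2 had -0.70 and -0.86 with the empty vector against -0.82 and -0.90 with MAX, a difference of -0.08 ± 0.10, and a further probe gave -0.13 ± 0.11. Ugt1a6, which acts on phenols, had -4.48 and -5.11 against -5.52 and -5.13, a difference of -0.53 ± 0.28 (adjusted p = 0.445 in limma). Its 2 empty vector arrays differed by 0.63, and one of them lay just above the MAX vector arrays. Which UGT1 transcript gave either signal is uncertain. Of the 7 UGT2 genes with a named probe, 0 were measured.

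Many P450 and sulfotransferase probes lay near the limit of detection. Of the 46 members, 34 were well above background on all 4 arrays, 6 on 3 and 6 on 2. The 6 just inside the rule were Cyp4b1, Cyp4a8, Cyp2a2, Cyp3a9, Cyp2j3 and Sult1d1, with scanner signals between 2.12 and 28.4. Cyp4a8 had -6.04 and -5.27 with the empty vector, where both arrays were well above background, and -5.80 and -5.54 with MAX, where neither was, and no fold is given. Just outside, Cyp1b1, Cyp2a3, Cyp2c22, Cyp4f1 and Sult2a2 were well above background on 1 array each. The highest empty vector signals of Cyp1b1, Cyp2c22, Cyp4f1 and Sult2a2 were -5.85, -6.04, -5.76 and -5.62. For Cyp2a3 the 1 array was MAX vector replicate 1, with -3.95 against -8.37, -8.32 and -8.05 on the others. The other 38 unmeasured genes were well above background on 0 arrays. The 47 probes of these families well above background on no array differed by a median of 0.33 between the groups, and all 10468 such probes by 0.35. Differences of that size were thus common below background.

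Genes that supply, regulate or complement these enzymes were read from 7 lists. Of 22 measured genes of other oxidation, hydrolysis and conjugation enzymes, 2 rose, 0 fell and 20 did not pass in limma. The shares over all genes were 0.576% higher and 0.264% lower. The median log2 fold change of the 22 was 0.21. At an unadjusted p under 0.05, 10 of the 22 were higher and 1 was lower, against 7.93% and 8.21% of all genes. The same shares stand beside the counts at that threshold in the other lists. Fmo1, a flavin-containing monooxygenase gene, had -4.80 and -4.72 with the empty vector against -1.21 and -0.86 with MAX. The log2 fold change was 3.73 ± 0.15 (adjusted p = 0.0197), and 3.90 on slide 1 alone. Fmo2 had -4.44 and -3.88 against -1.48 and -1.20, which gave 2.82 ± 0.24 (adjusted p = 0.0431), and 2.96 on slide 1 alone. In both genes the groups lay far apart. The carboxylesterase genes Ces1d and Ces2c had 1.69 ± 0.27 and 1.58 ± 0.16 (adjusted p = 0.111 and 0.0575). Fmo4 had 1.41 ± 0.16, Ptges, a prostaglandin E synthase gene, 1.39 ± 0.13 and Aldh1a1, a retinal dehydrogenase gene, 0.98 ± 0.16 (adjusted p = 0.0654, 0.0521 and 0.114).

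In glutathione synthesis, recycling and peroxidases 0 of 12 measured genes passed in limma (4 higher and 2 lower with an unadjusted p under 0.05), and the median was 0.07. Gclc, the catalytic subunit of the enzyme that limits glutathione synthesis, had -0.57 and -0.71 with the empty vector against -1.10 and -1.14 with MAX, a difference of -0.48 ± 0.10 (adjusted p = 0.157). Gpx3, the secreted glutathione peroxidase gene, had 1.63 and 2.22 against 3.79 and 3.83, a difference of 1.89 ± 0.22 (adjusted p = 0.0701). Neither pair of groups overlapped. Gclm, the modifier subunit, had -0.99 ± 0.92, with MAX vector arrays at -7.79 and -5.27.

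Among NRF2 factors and known targets outside these families, 0 of 17 measured genes passed in limma (2 higher and 2 lower with an unadjusted p under 0.05), with a median of -0.10. Nqo1, a quinone reductase gene, had -0.16 ± 0.17, Hmox1, a haem oxygenase gene, -0.34 ± 0.13 and Txnrd1, a thioredoxin reductase gene, -0.11 ± 0.09. Aldh3a1, the aldehyde dehydrogenase gene with the largest difference on this list, had 0.48 ± 0.14. All but Aldh3a1 of these genes had negative values. Xenobiotic and sterol receptors with their partners had 0 calls among 9 measured genes (1 at an unadjusted p under 0.05) and a median of 0.02. Of these, Nr1h3, a sterol receptor gene, had 0.42 ± 0.10, Ahr -0.13 ± 0.48 and Arnt -0.04 ± 0.12.

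Electron donors and haem supply of P450s had 0 calls in limma among 9 measured genes (0 with an unadjusted p under 0.05), with a median of -0.07. Por, the reductase that passes electrons to microsomal P450s, had 1.03 and 1.10 with the empty vector against 1.30 and 1.11 with MAX, a difference of 0.14 ± 0.11. The 4 measured genes that supply sulfate and glucuronate donors had 0 calls (2 at an unadjusted p under 0.05), a median of -0.40 and differences from -0.51 to 0. Ugdh, whose enzyme makes UDP-glucuronate, had -0.45 ± 0.09 (adjusted p = 0.161), and Ugp2, one step earlier, had -0.51 ± 0.10 (adjusted p = 0.149). Of 8 efflux pump genes 0 passed (1 at an unadjusted p under 0.05), with a median of -0.22, and Abcg2 had -1.01 ± 0.14 (adjusted p = 0.0914).

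**Figure D4:**
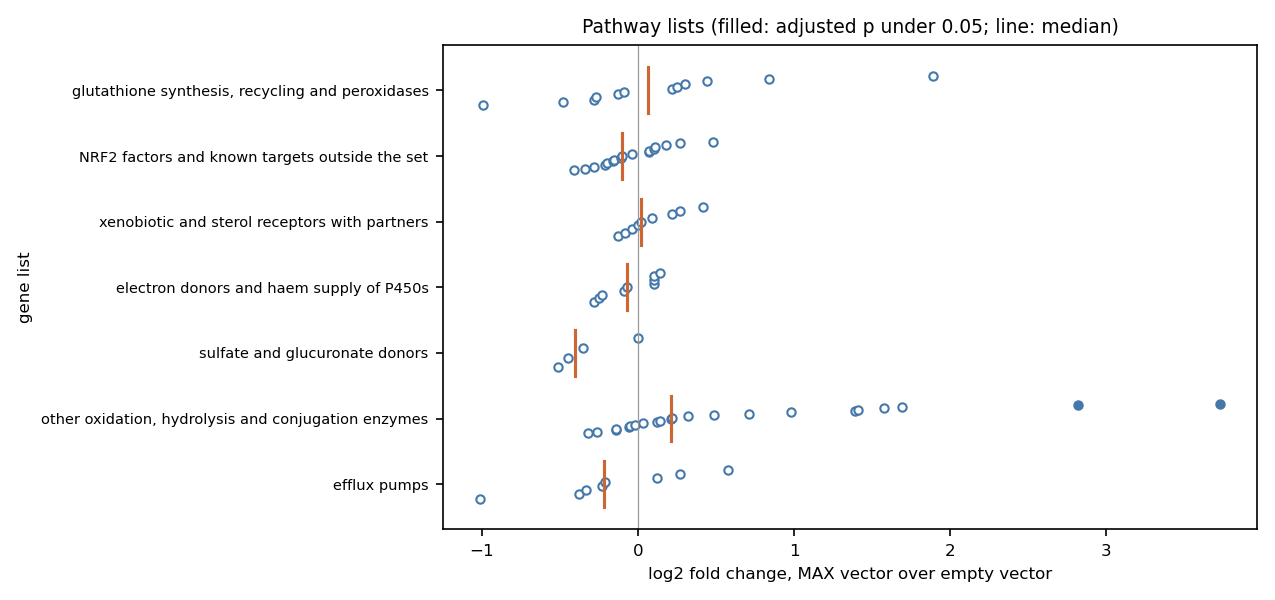
Log2 fold change, MAX vector over empty vector (horizontal axis), of each measured gene of 7 lists around the enzymes (vertical axis), with a line at each list's median. Filled points passed an adjusted p of 0.05, and these are Fmo1 at 3.73 and Fmo2 at 2.82.

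Since many of these enzymes mark liver or epithelia, markers of other cell types were read beside them. Of 6 hepatocyte markers 4 were measured and 0 passed in limma, with differences of 0.16 to 0.88. Their summed signal, in multiples of each array's 75th percentile, was 0.108 and 0.116 with the empty vector against 0.172 and 0.195 with MAX. Apoa1, Serpina1 and Fgb lay near the limit of detection, at -5.81 to -5.31 with the empty vector. The lowest signals called well above background there were -6.53 and -6.07. Serpina1 was well above background on 1 empty vector array and Fgb on 1 MAX vector array. Alb and Ttr had a named probe and were not measured. All 5 epithelial markers were higher on both MAX vector arrays, against 24.2% of all genes, and Krt19 passed (3.19 ± 0.18, adjusted p = 0.0263 in limma). Their summed signal was 7.21 and 7.33 against 15.3 and 14.2. The 4 measured macrophage markers, 0 of which passed, summed to 4.86 and 5.59 against 9.09 and 8.82. Most of that sum is Cd14, with 2.08 and 2.29 against 3.07 and 2.94 on the log2 scale. Lyz2, much dimmer, was also higher on both MAX vector arrays, with -6.34 and -5.99 against -4.83 and -4.85. Its difference was 1.32 ± 0.15 (adjusted p = 0.0674 in limma), while Cd68 and Csf1r overlapped between the groups. The 4 measured fibroblast markers, 0 of which passed, summed to 128 and 141 against 135 and 144, with Lum at -1.19 ± 0.27, Dcn at 0.75 ± 0.13 and Col3a1 at 0.07 ± 0.10. Kdr, the single endothelial marker measured, had 1.98 ± 0.23 (adjusted p = 0.0701). The part of any such cells in the Gsta2, Cyp2c7 or sulfotransferase values was not tested.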

How the data were processed

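Total RNA was labelled with Cy3 and hybridised to 4 one-colour Agilent rat arrays, 2 per group. The deposited scanner files hold spot intensity, written by Feature Extraction 10.7.3.1 per the file headers (10.7 per the submitters' processing notes), with annotation of build rn4, background-subtracted and detrended within an array and not scaled between arrays. A value table in log2 was deposited too, whose differences between arrays matched the setting used here (Pearson r = 1). Its centring per probe is unknown, and its column medians were -0.033, -0.011, -0.005 and -0.006.

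Outlier spots were left out (89 to 140 an array), and 89 probes lost all their spots on an array. Log2 processed signals were averaged per probe, and the 75th percentile of the array was taken off (700.5 and 611.4 units with the empty vector, 590 and 666.3 with MAX). Genes were named by RefSeq accession without version through the GRCr8 gene table, which named 10768 of 41012 probes. Tests used probes well above background on at least 2 arrays and, per gene, the probe with the highest mean. Groups were compared in limma 3.58.1 (lmFit, then eBayes, in R 4.3.3; 3.94 degrees of freedom in total), adjusted by Benjamini-Hochberg over all 25356 genes; ± is the SE. Where a gene was dim in 1 group on every array, the fold is a bound. The normexp alternative used median spot signals in place of means. The reported fit did not pair arrays by replicate number. Differences between replicates 1 and 2 in the 2 groups had a Pearson r of -0.02 across genes. This cannot settle a pairing by passage, since the MAX vector arrays also differed in slide.

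Members and lists were chosen with earlier results of these data known. Any measured member could be named. Values on every array were due for members that passed, differed by at least 1 in log2, were dim in 1 group or were among up to 4 of the brightest of a family, and for list genes that passed or differed most. Gsta3, Gstm3, Cyp11a1, Cyp11b3, Cyp2a3, Sult2b1, Gclc, Por, Ces2c, Fmo4, Ptges and Aldh1a1 were added after their values were seen. On simulated data with these genes' means, 5.14% of 2-fold, 69% of 4-fold and 93.3% of 16-fold changes were recovered in the comparison of 25356 genes. Of the calls in the simulation 5.35% were false, which is not a measure of the false share among the reported calls.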

Additional observations from a re-analysis of the deposited data

How the results depend on the processing

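Against 213 genes and 4 members that passed as reported, 794 genes passed with normexp, 550 genes and 8 members with the array median as scaling, 515 genes when all 4 arrays had to be well above background, 330 with both arrays of a group and 955 with an intensity trend. Without a filter on dim probes limma called 0 genes and 0 members (unadjusted p under 0.05 in 4033 and 22). The replicate block also gave 0 genes and 0 members (3885 and 20), and the slide block 8 genes and 0 members (3908 and 18). Leaving out 1 array gave 0 to 144 genes and 0 to 2 members. The 75th percentile over all spots, chosen after seeing the data, gave 236 genes and 5 members. Of the calls, 68.5% were higher as reported, 54% with normexp, 56.9% with the trend and 49.3% without MAX vector replicate 2. No scaling moved the median of all genes by over 0.1.

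The 4 called members kept their direction in all 62 tests under an alternative and lost the call in 31. Of the 42 other members, 29 kept their direction throughout, and 19 tests gave a call. For 13 the direction changed in some setting, all without a call. With the slide as a block Gstm5 had -0.01, Cyp4a8 0.12, Cyp2a2 0.40, Cyp2c11 0.13, Cyp2t1 0.25, Cyp4a1 0.06, Cyp4a2 0.03 and Cyp11b3 0.72. With normexp Gstm1 and Cyp2a2 had 0.00. With quantile normalization Cyp4a8 had 0.02 and Cyp2a2 0.04, and with median scaling 0.01 and 0.00. With 1 array left out the values ran from -0.01 to 0.16 for Gstm5, -0.07 to 0.43 for Cyp27b1, -0.40 to 0.38 for Cyp4a8, -0.42 to 0.40 for Cyp2a2, -0.51 to 0.23 for Cyp2c11, -0.63 to 0.25 for Cyp2t1, -0.46 to 0.06 for Cyp4a1, -0.42 to 0.03 for Cyp4a2, -1.26 to 0.72 for Cyp11b3, -2.47 to 0.08 for Cyp2d3, -0.26 to 0.13 for Sult4a1 and -0.15 to 0.00 for Ugt1a2. Where 1 array of a group was left, it was assumed to vary like the other group. The causes were not tested. Signals near background limit Cyp3a9, Cyp2j3, Sult1d1 and Cyp4b1.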
